A study of Rattus norvegicus with 6 samples.

Results

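The enzymes described here break down amino acids in the proximal tubule or feed the carbon that is left into glucose synthesis. They were given as a list of 44 gene symbols, and each symbol was looked up on the arrays through the RefSeq accession of its probes. Of the 44, 41 had a probe and stood among the 11530 genes tested, and all 41 were well above background on all 6 arrays. No probe carried an accession of Auh, of leucine breakdown, or of Gldc and Shmt1, of glycine and serine metabolism. The animals were 6 male rats of the Sprague-Dawley strain, 5 weeks old when purchased, and RNA of the renal cortex of each went on 1 array. The water group held 3 rats given water for 4 weeks, and the ethylenediamine group held 3 rats given ethylenediamine dihydrochloride, a small diamine salt, at 500 mg/kg/day for 4 weeks. All 6 rats had the same basal diet and tap water, and no transgene or other agent is named for either group.

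Proximal tubule cells reabsorb filtered amino acids and oxidise part of them in their mitochondria, cytosol and peroxisomes. The first step is usually the removal or transfer of the amino group or an oxidation by a flavin enzyme, after which the carbon skeleton enters the tricarboxylic acid cycle or leaves as glucose. Cortex is the part of the kidney that makes glucose, and it also makes arginine from citrulline and the creatine precursor guanidinoacetate. Creatine synthesis, the breakdown of D-amino acids and the oxidation of inositol are further known tasks of these cells. Each signal below is on a log2 scale on which the 75th percentile of the array is 0, each difference is the ethylenediamine mean minus the water mean on that scale, and ± gives the standard error of the fit across all genes.

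The tissue label was checked against marker genes. All 10 early proximal tubule markers and all 10 late ones were measured. On a linear scale (75th percentile of the array = 1) the early ones summed to 1513 to 1582 on the water arrays. Their sum was 1512 to 1524 on the ethylenediamine arrays. The brightest genes weigh most in such a sum. On the log2 scale the early markers had a median difference of -0.03, with a range of -0.29 to 0.05. Treated arrays all lay below water arrays for 3 of the 10 (8.27% of all genes). These were Slc5a2 at -0.14, Slc6a19 at -0.28 and Lrp2 at -0.19. Treated arrays all lay above for 1 (9.2% of all genes), Slc22a6 at 0.02. The part of the early markers in the values of the enzymes was not tested. The arrays lay on 2 slides scanned on different days. Only 1 treated animal, ethylenediamine replicate 1, shared slide 1 with the water group, while replicates 2 and 3 were on slide 2. A value for ethylenediamine replicate 1 against water is therefore also the value within slide 1 and the estimate with the slide as a block. It rests on 1 animal, the treated array with the fewest probes well above background (35691 against 40516 and 40843). For replicates 2 and 3 treatment and slide cannot be told apart.

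For the promoters, the 250 bases before the gene start in RefSeq (assembly GRCr8) were searched for motifs of HNF4 and HNF1, transcription factors of proximal tubule cells. A window was found for 39 of the 44 members, and not for Dmgdh, Prodh, Bckdha, Mccc2 and Arg2. The HNF4 motif CAAAGTCCA, searched on both strands, was in the windows of 3 of 39 members (Agxt2, Pipox and Kmo) and in 0.338% of all 33469 windows. The short HNF1 motif GTTAAT, also on both strands, was in those of 4 members (Prodh2, Sardh, Miox and Hpd) and in 6.45% of all windows. Members were counted once per gene and the other share by window, and a gene with 2 listed starts has 2 windows. The 3 windows with the rarer motif, 2 with the other (for Sardh, the one of its 2 listed starts whose window holds it) and that of Dao, one of the members lowest against water, are shown 5′ to 3′ so that the motifs can be set beside the values below, with the motifs in capitals.
Agxt2, chr2:61063166-61063415, plus strand: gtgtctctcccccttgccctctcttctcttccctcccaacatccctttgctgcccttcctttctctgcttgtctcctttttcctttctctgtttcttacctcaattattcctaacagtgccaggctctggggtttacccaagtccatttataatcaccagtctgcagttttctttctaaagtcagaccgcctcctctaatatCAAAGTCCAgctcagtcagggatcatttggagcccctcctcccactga
Pipox, chr10:63280440-63280689, minus strand: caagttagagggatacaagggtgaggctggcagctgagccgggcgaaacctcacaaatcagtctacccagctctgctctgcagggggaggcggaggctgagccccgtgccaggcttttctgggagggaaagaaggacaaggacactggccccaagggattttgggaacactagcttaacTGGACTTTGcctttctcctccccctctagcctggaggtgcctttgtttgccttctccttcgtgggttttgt
Kmo, chr13:90089271-90089520, plus strand: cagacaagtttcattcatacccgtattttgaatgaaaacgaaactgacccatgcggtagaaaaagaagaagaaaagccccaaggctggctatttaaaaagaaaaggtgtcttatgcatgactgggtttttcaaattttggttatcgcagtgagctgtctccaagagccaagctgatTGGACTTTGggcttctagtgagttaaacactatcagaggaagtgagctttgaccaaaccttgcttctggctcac
Sardh, chr3:30971658-30971907, minus strand: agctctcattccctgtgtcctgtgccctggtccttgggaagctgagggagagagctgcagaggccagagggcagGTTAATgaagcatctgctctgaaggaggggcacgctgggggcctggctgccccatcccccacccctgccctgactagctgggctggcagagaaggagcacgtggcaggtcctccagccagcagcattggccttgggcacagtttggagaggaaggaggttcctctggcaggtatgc
Prodh2, chr1:94880837-94881086, plus strand: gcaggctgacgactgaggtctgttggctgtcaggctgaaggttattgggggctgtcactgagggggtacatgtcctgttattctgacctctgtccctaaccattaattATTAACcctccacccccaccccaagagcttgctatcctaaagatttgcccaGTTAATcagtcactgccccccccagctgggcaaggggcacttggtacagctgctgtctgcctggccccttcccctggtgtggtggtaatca
Dao, chr12:48273301-48273550, minus strand: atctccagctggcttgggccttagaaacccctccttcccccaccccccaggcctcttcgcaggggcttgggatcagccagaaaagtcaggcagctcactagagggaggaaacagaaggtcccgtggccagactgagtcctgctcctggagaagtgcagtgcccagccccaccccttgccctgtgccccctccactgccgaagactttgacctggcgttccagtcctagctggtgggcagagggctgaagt
The Dao window held neither motif, and nor did that of Ass1. Of the members with the HNF4 motif, Agxt2 differed from water by -0.32, Pipox by -0.27 and Kmo by -0.05. Of those with the HNF1 motif, Hpd differed by -0.21, Sardh by -0.13, Miox by -0.03 and Prodh2 by 0.03.

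The question the design puts to these genes is whether their transcripts differ in the cortex of treated rats. As a group they lay slightly lower in ethylenediamine-treated cortex, and no single member passed the test over all genes. The median difference of the 41 members was -0.11, against 0.00 over all genes tested. Of the 41, 30 had a difference below 0, or 73.2%, where 51.2% of all genes did. Median scaling raised the count to 35, but it also moved the median of all genes, to -0.03. Within slide 1 the count fell to 24, and a fit blocked by slide gave 24 too. Both of these rest on ethylenediamine replicate 1 alone. The 4 members furthest from water by the test, all lower, were dimethylglycine dehydrogenase (Dmgdh), proline dehydrogenase (Prodh), D-amino acid oxidase (Dao) and argininosuccinate synthase (Ass1). The largest positive differences were those of the transaminase Aadat, at 0.72 ± 0.44, and of the arginase Arg2, at 0.50 ± 0.71 (SE, n = 3 per group).

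By limma, 0 of 41 members passed an adjusted p of 0.05 in either direction, as did 0 of all genes (0% of 11530 higher and 0% lower), and the smallest adjusted p of a member was 0.404. An unadjusted p under 0.05 was found for 4 of 41 members on the lower side (9.76%) and 0 on the higher side, and for 4.97% and 5.39% of all genes on these sides. The 3 treated arrays all lay below the 3 water arrays for 8 members (19.5%), where 8.27% of all genes did so. They all lay above for 0 members, against 9.20% of all genes. The 8 were Dmgdh, Sardh, Prodh, Dao, Pccb, Ass1, Asl and Got1. The members were listed with results of these data known, so these shares describe the list and carry no test.

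The differences were not alike on the 3 treated arrays. The median over the 41 members, each set against its water mean, was -0.02 on ethylenediamine replicate 1 and -0.13 on each of replicates 2 and 3, while the water arrays stood at -0.01, -0.02 and 0.03. Replicate 1 thus lay within the water arrays, and replicates 2 and 3, both on slide 2, lay below all of them. Members below their water mean numbered 24, 32 and 33 of 41 on replicates 1 to 3, against 50.6%, 49.6% and 51.0% of all genes. On both arrays of slide 2, 25 members lay below every water array, where 16.4% of all genes did, and 2 lay above every water array, where 16.9% did. Without ethylenediamine replicate 3 the median difference was -0.05, without replicate 2 it was -0.07 and without replicate 1 it was -0.14. The count of members lower at an unadjusted p under 0.05 was 14 without ethylenediamine replicate 1, where 6.25% of all genes were lower, with 2 members then higher (7.22% of all genes). It was 0 without water replicate 2 (4.02% of all genes) and 1 without water replicate 3 (3.76%), each near or under that share. Without ethylenediamine replicate 2 it was 1 (4.40%) and without ethylenediamine replicate 3 it was 2 (4.34%), both again near or under that share. Without water replicate 1 it was 3 of 41, above the share of all genes (3.86%). A fit blocked by slide gave counts of 3 lower and 2 higher, against 3.97% and 3.66% of all genes, and within slide 1 they were 2 and 1, against 4.46% and 3.91%. An intensity trend in the fit gave 7 lower and 0 higher members (4.92% and 5.85% of all genes), and median scaling gave 6 and 0 (6.28% and 3.79%). The part of the slide in this difference between treated arrays was not tested.

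**Figure D1:**
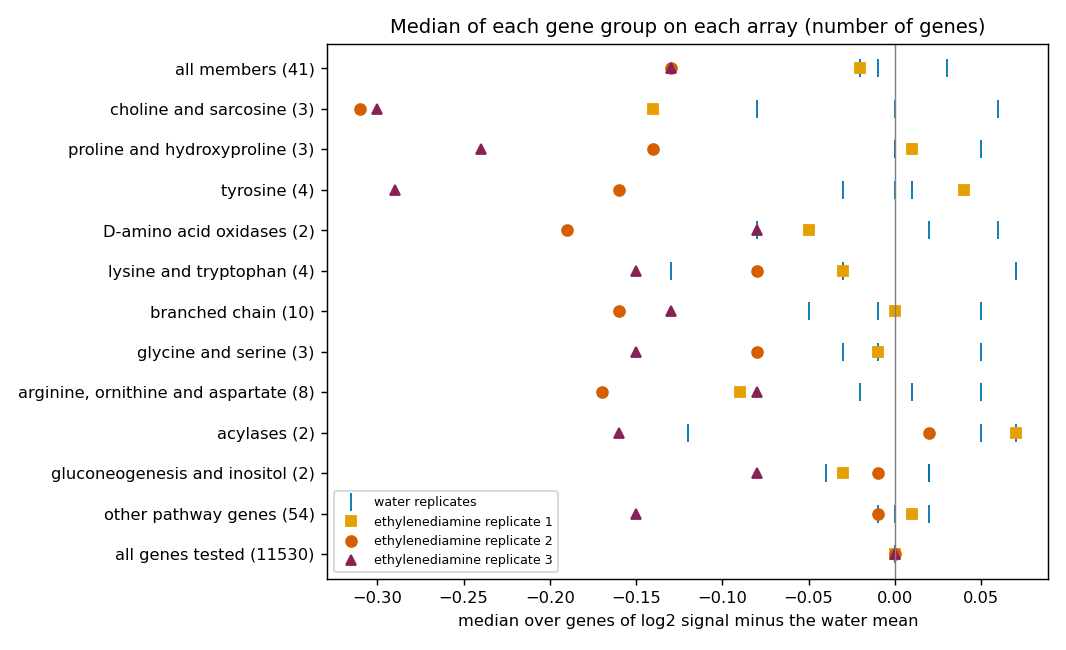
Each row is a gene group with its number of measured genes, and the x axis is the median over its genes of the log2 signal minus the mean of the 3 water arrays, with blue ticks for water arrays and a square, circle and triangle for ethylenediamine replicates 1, 2 and 3. Over all 41 members replicate 1 stands at -0.02 and replicates 2 and 3 both at -0.13, while all genes tested lie at 0.00 on each array.

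Markers of other cells were read on the same arrays. Of 14 listed distal tubule and collecting duct markers 12 were measured, all 12 with a difference at or below 0 (51.2% of all genes were below 0). Their median difference was -0.28. Treated arrays lay wholly below water arrays for 5 of the 12 (8.27% of all genes) and wholly above for 0 (9.20%). These 5 were Calb1 at -0.89, Aqp2 at -0.57, Slc26a4 at -0.48, Trpv5 at -0.44 and Atp6v0d2 at -0.25. The sum of all 12 on the linear scale was 275 to 329.6 on water arrays and 199 to 247 on treated arrays. For smooth muscle 6 of 7 were measured, with sums of 30.2 to 45.1 and 41.5 to 57.5. For 4 of the 6 (Tagln at 0.83, Myh11 at 0.71, Acta2 at 0.41 and Des at 0.23) the treated arrays all lay above the water arrays, as for 9.20% of all genes. The tubular injury list had 12 of 14 measured, with sums of 37.7 to 53.2 and 48.5 to 66.0. Of the 12 differences, 9 were above 0, among them Krt18 at 0.00, and 3 below (51.2% of all genes were below 0). The treated arrays all lay above the water arrays for 3 of the 12 (9.20% of all genes). These were Havcr1 at 2.56 (well above background on 2 of 3 water arrays), Lcn2 at 1.06 and Timp1 at 0.37. Liver makes many of these enzymes too, and 5 of 8 listed liver markers were measured, with sums of 1.44 to 1.48 and 1.56 to 1.82. Albumin (Alb) was well above background on 1 of the 3 water arrays and on all 3 treated arrays, where it stood at -2.04, -3.89 and -2.29. Transthyretin (Ttr) was not well above background on any water array and was so on all 3 treated arrays, while Apoa1, Fgb and Ahsg overlapped between the groups. Markers of thick ascending limb, podocyte, endothelium and leukocytes had median differences of -0.04, -0.08, -0.09 and -0.03. The treated arrays lay wholly below the water arrays for 0 of 8, 0 of 6, 1 of 8 and 0 of 7 of these (8.27% of all genes). They lay wholly above for 0 in each list (9.20% of all genes). Fewer cells of a type and less RNA per cell cannot be told apart in bulk tissue, and the part of these markers in the values of the enzymes was not tested.

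The 3 members that demethylate or oxidise products of choline breakdown had the lowest median of the role groups. Dmgdh and Sardh are mitochondrial flavin enzymes that remove methyl groups from dimethylglycine and from sarcosine, and Pipox oxidises sarcosine and pipecolate in peroxisomes. Dmgdh had signals of 1.86, 2.03 and 2.03 on water replicates 1 to 3 and of 1.83, 1.67 and 1.67 on ethylenediamine replicates 1 to 3. The groups did not overlap, with treated replicate 1 just under the lowest water array, and the difference was -0.25 ± 0.08 (adjusted p = 0.404 by limma; 0.254 to 0.812 over the alternatives). Sardh stood at 0.33, 0.50 and 0.41 on water arrays and at 0.26, 0.29 and 0.32 on treated arrays. Here the treated arrays were close together and again all under the water arrays, and the difference was -0.13 ± 0.06. Pipox gave -0.47, -1.09 and -1.01 with water and -0.97, -1.19 and -1.23 with treatment, so that its groups overlapped through the spread of the water arrays (SD 0.337). Its difference of -0.27 ± 0.18 did not exceed that spread. All 3 members lay below 0 (51.2% of all genes), with a median of -0.25, and 1 of them had an unadjusted p under 0.05 (4.97% of all genes). Choline dehydrogenase (Chdh), which starts this route and is no member, stood at 0.40 ± 0.16; it was singled out after its value was seen.

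Proline is oxidised by Prodh and hydroxyproline by Prodh2, both flavin enzymes of the mitochondrial membrane, and Aldh4a1 carries the products of both on to glutamate and hydroxyglutamate. Prodh had the largest negative difference of any member. Its brightest probe gave 4.68, 5.02 and 5.02 on the water arrays and 4.67, 4.50 and 4.39 on the treated arrays. Water replicate 1 and treated replicate 1 were nearly equal, while treated replicates 2 and 3 were clearly lower. The difference was -0.38 ± 0.12, a ratio of 0.77 (adjusted p = 0.407 by limma; 0.284 to 0.816 over the alternatives). Prodh had 4 probes on the array, and all 4 had treated arrays wholly below water arrays. In order of brightness their differences were -0.38, -0.42, -0.91 and -1.06. The dimmest of them stood at -0.95, -0.48 and -0.55 with water and at -1.22, -1.76 and -2.18 with treatment. The size of the Prodh difference therefore depended on the probe, while its direction did not. With the mean over its probes in place of the brightest, it was -0.69 (adjusted p = 0.344 by limma).

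Prodh2, its paralog, stood at 5.54 on each of the 3 water arrays and at 5.59, 5.48 and 5.65 on treated arrays, a difference of 0.03 with a 95% interval of -0.12 to 0.18. The difference between Prodh and Prodh2 in their response was not tested. Aldh4a1 gave 6.57, 6.47 and 6.60 on water arrays and 6.56, 6.40 and 6.30 on treated arrays. Replicate 1 lay among the water arrays and the difference was -0.12 ± 0.08. The other 2 probes of the gene stood at -0.29 and -0.27, and in both the treated arrays all lay below the water arrays.

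Tyrosine is broken down in sequence by Hpd, Hgd, Gstz1 and Fah to fumarate and acetoacetate. All 4 differences were below 0 (51.2% of all genes), at -0.21, -0.02, -0.14 and -0.13, with that of Hgd at 0.00 under quantile scaling. In the limma fit 0 of 4 passed an unadjusted p of 0.05, against 4.97% of all genes lower and 5.39% higher. Gstz1 stood at 4.89, 4.88 and 4.99 with water and at 4.95, 4.76 and 4.64 with treatment. Fah, the last enzyme of the pathway, gave 5.17, 5.17 and 5.21 on water arrays and 5.24, 5.02 and 4.88 on treated arrays. For Hpd, Gstz1 and Fah treated replicate 1 was at 0.08, 0.02 and 0.06 against the water mean, and replicates 2 and 3 averaged -0.36, -0.22 and -0.23. Hgd, the iron enzyme between Hpd and Gstz1, did not share that order, with -0.10 on replicate 1 and 0.03 over replicates 2 and 3.

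The peroxisomal flavin enzyme Dao oxidises neutral D-amino acids and Ddo acidic ones. Dao stood at 5.65, 5.63 and 5.55 on water arrays and at 5.46, 5.23 and 5.42 on treated arrays. All 3 treated arrays lay under the lowest water array, and the difference was -0.24 ± 0.08, a ratio of 0.85 (adjusted p = 0.407 by limma; 0.285 to 0.814 over the alternatives). It was -0.15 on treated replicate 1 alone. Ddo gave -2.55, -2.46 and -2.65 with water and -2.50, -2.56 and -2.53 with treatment. Its groups overlapped and its difference was 0.03 ± 0.07, with -0.02 under normexp background correction and 0.00 under median scaling.

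**Figure D2:**
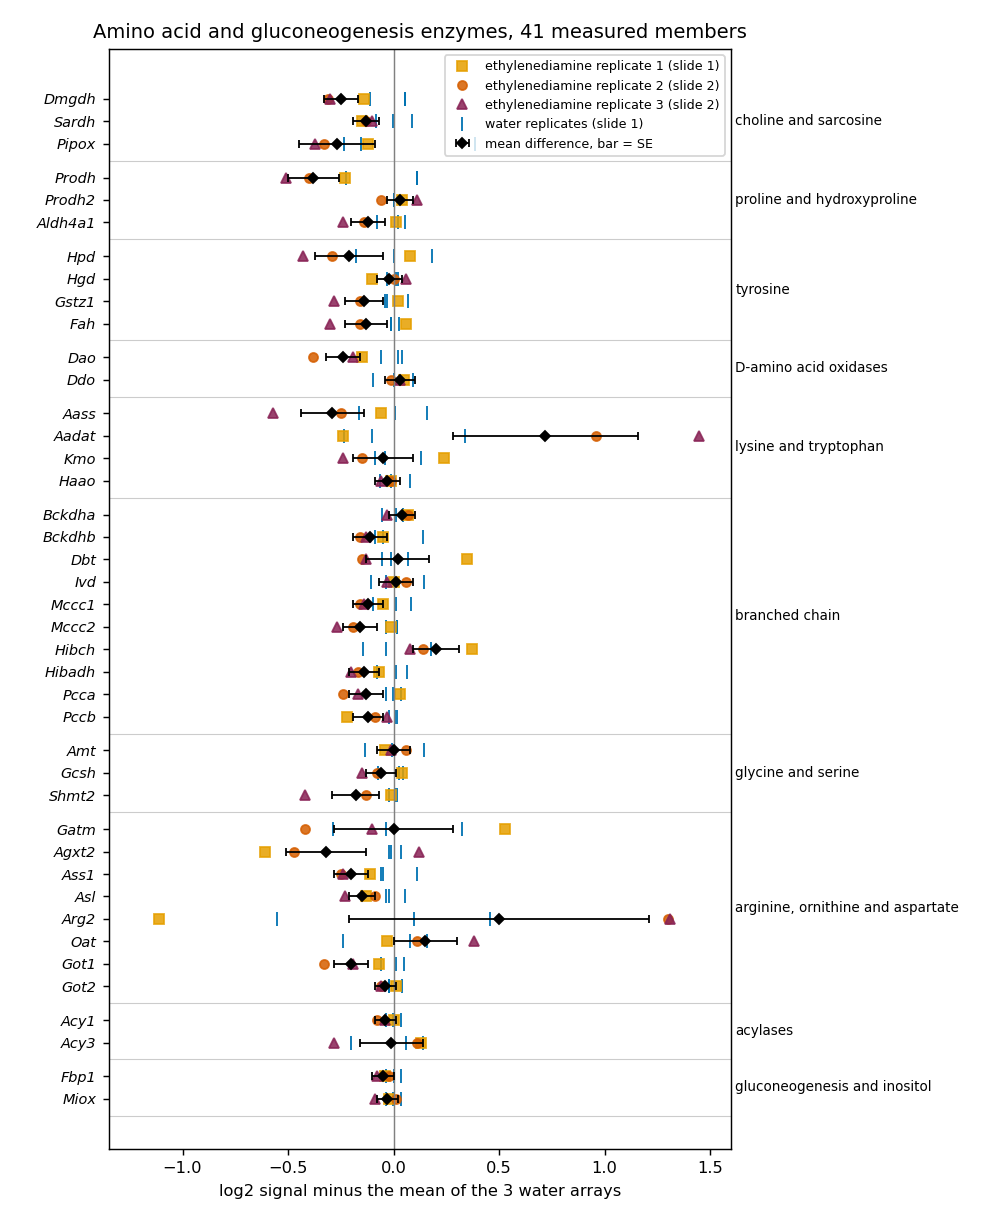
Each row is a member, the x axis is its log2 signal minus its water mean, blue ticks are the 3 water arrays, the square, circle and triangle are ethylenediamine replicates 1, 2 and 3, and the diamond with its bar is the mean difference and its standard error (n = 3 per group). Of 41 diamonds 30 lie below 0, while Aadat at 0.72 and Arg2 at 0.50 stand far to the right with wide bars.

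**Figure D3:**
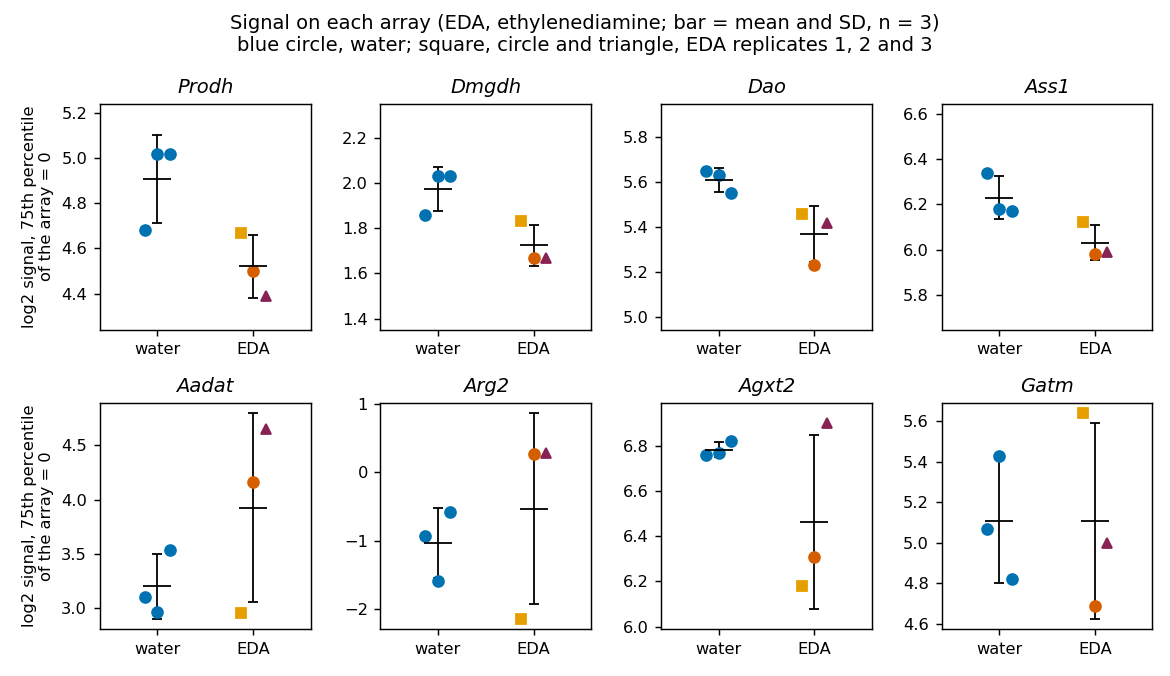
Log2 signal of 8 members on each array, with the mean and SD of each group (n = 3) and a separate y axis for each gene. Prodh, Dmgdh, Dao and Ass1 have all treated arrays below all water arrays, whereas in Aadat and Arg2 treated replicate 1 is below the water mean and replicates 2 and 3 are above every water array.

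Lysine and tryptophan breakdown held the widest range of differences, from -0.29 to 0.72. Aass joins lysine to oxoglutarate in the first step of its mitochondrial breakdown, and Aadat is the aminotransferase of aminoadipate and kynurenine. Kmo, a flavin enzyme of the outer mitochondrial membrane, hydroxylates kynurenine, and the iron enzyme Haao acts further down the same route. Aass stood at 2.37, 2.20 and 2.52 with water and at 2.31, 2.11 and 1.80 with treatment. The groups overlapped and the difference was -0.29 ± 0.15. Kmo and Haao had differences of -0.05 and -0.03, with standard errors of 0.14 and 0.06.

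Aadat went the other way on 2 of the 3 treated arrays. Its signals were 3.10, 2.97 and 3.54 on water arrays and 2.96, 4.16 and 4.65 on ethylenediamine replicates 1 to 3. Replicate 1 lay just below the lowest water array, and replicates 2 and 3 were 0.96 and 1.45 above the water mean. The difference of 0.72 ± 0.44 had an adjusted p of 0.617 by limma (0.208 to 0.904 over the alternatives), and within slide 1 it was -0.24. A second probe of the gene gave a difference of 0.67, and -0.20 on replicate 1. Among all members only Aadat and Arg2 lay above every water array on both arrays of slide 2.

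Arg2, the mitochondrial arginase that splits arginine to ornithine and urea, had the same order of arrays. It stood at -0.94, -1.59 and -0.58 with water and at -2.14, 0.26 and 0.28 with treatment. Treated replicate 1 was the lowest of all 6 arrays and replicates 2 and 3 were the highest. The SD was 0.511 among water arrays and 1.39 among treated arrays, the largest of any member, so the difference of 0.50 ± 0.71 did not exceed the spread between animals. Ornithine aminotransferase (Oat), which takes the ornithine on towards glutamate, had a difference of 0.15 ± 0.15, at -0.03 on replicate 1 and 0.24 over replicates 2 and 3. Late proximal tubule (S3) markers differed between the same arrays. The sum of all 10 on the linear scale was 310.4 to 319 on the water arrays and 299, 373 and 416 on ethylenediamine replicates 1 to 3, with 9 of the 10 well above background on all 6 arrays. Among them the amino acid carrier Slc7a13 stood at 2.87, 2.99 and 3.90 with water and at 2.26, 5.27 and 5.75 with treatment. The organic anion carrier Slc22a7, at -3.78, -4.26 and -2.75 with water, stood at -4.42, -1.02 and -1.08 with treatment, well above background on 2 of these 3 arrays. Slc3a1 had that order too, at 7.67, 7.69 and 7.72 with water and 7.61, 7.86 and 7.98 with treatment. Slc22a24 (0.38) and Slc6a18 (0.35) also lay above every water array on replicates 2 and 3. Markers such as Slc5a1 and Cyp4b1 did not share it, at -0.40 and -0.42. Over the list the median difference was 0.11, with 7 markers above 0 and 3 below (51.2% of all genes below 0). The part of these markers in the values of Aadat and Arg2 was not tested.

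Arginine is made in cortex from citrulline and aspartate, by Ass1 and then Asl. Ass1 stood at 6.34, 6.18 and 6.17 on water arrays and at 6.12, 5.98 and 5.99 on treated arrays. The groups did not overlap, by a narrow margin at treated replicate 1, and the difference was -0.20 ± 0.08, a ratio of 0.87 (adjusted p = 0.46 by limma; 0.307 to 0.869 over the alternatives). Asl, the next enzyme, gave 5.41, 5.42 and 5.50 with water and 5.32, 5.36 and 5.21 with treatment. Its treated arrays also all lay below its water arrays, at -0.15 ± 0.06, and its second probe stood at -0.24. Both steps of arginine synthesis were thus lower on each of the 3 treated arrays, by -0.11 and -0.13 on replicate 1.

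The aspartate that enters this synthesis comes from the transaminases Got1, in the cytosol, and Got2, in mitochondria. Got1 stood at 3.88, 3.84 and 3.77 with water and at 3.76, 3.50 and 3.64 with treatment. Treated arrays lay below water arrays, with replicate 1 only just so, and the difference was -0.20 ± 0.08. Got2 had a difference of -0.04 with a 95% interval of -0.17 to 0.09.

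Gatm makes guanidinoacetate, the precursor of creatine, from arginine and glycine, and Agxt2 transfers amino groups from beta-aminoisobutyrate and methylated arginines. Both varied widely among treated animals. Gatm stood at 5.07, 5.43 and 4.82 with water and at 5.64, 4.69 and 5.0 with treatment. Its highest array was treated replicate 1 and its lowest was treated replicate 2, so the mean difference of 0.00 ± 0.28 hides a spread with an SD of 0.484. Agxt2 gave 6.76, 6.77 and 6.82 on water arrays and 6.18, 6.31 and 6.90 on treated arrays. Treated replicates 1 and 2 were well below the closely grouped water arrays (SD 0.0323) and replicate 3 was above them, and the difference was -0.32 ± 0.19. Of the 8 members of this group, 5 lay below 0 (51.2% of all genes) and 3 had treated arrays wholly below water arrays (8.27% of all genes).

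Breakdown of the branched chain amino acids runs through the ketoacid dehydrogenase subunits Bckdha, Bckdhb and Dbt, then through separate mitochondrial steps for leucine, valine and isoleucine. Of 10 measured members 6 lay below 0 (51.2% of all genes) and 4 above, with differences from -0.16 to 0.20. In the limma fit 0 of 10 passed an unadjusted p of 0.05, against 4.97% of all genes lower and 5.39% higher. The subunits stood at 0.04, -0.11 and 0.02, and Dbt at -0.01 with median scaling. In leucine breakdown, Ivd was at 0.01 (-0.02 with median scaling) and the 2 subunits of methylcrotonyl-CoA carboxylase, Mccc1 and Mccc2, at -0.12 and -0.16. Mccc2 gave 3.86, 3.91 and 3.91 with water and 3.88, 3.70 and 3.62 with treatment, with replicate 1 among the water arrays. In valine breakdown the consecutive enzymes Hibch and Hibadh had opposite signs. Hibadh stood at 5.87, 6.01 and 5.96 on water arrays and at 5.88, 5.78 and 5.75 on treated arrays, a difference of -0.14 ± 0.07. Hibch had the largest positive value of the group, at 0.20 ± 0.11, and was positive on all 3 of its probes (0.20, 0.28 and 0.14). The 2 subunits of propionyl-CoA carboxylase were close to each other, Pcca at -0.13 and Pccb at -0.12, but their arrays were not: Pccb was lowest on treated replicate 1, at -0.22, where Pcca stood at 0.03.

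Glycine is cleaved in mitochondria by a complex that includes Amt and Gcsh, and Shmt2 interconverts glycine and serine there. Shmt2 stood at 3.76, 3.73 and 3.77 with water and at 3.75, 3.62 and 3.34 with treatment. Replicate 1 lay among the water arrays and replicate 3 well below, and the difference was -0.18 ± 0.11. Gcsh gave 3.95, 4.05 and 4.07 on water arrays and 4.07, 3.94 and 3.88 on treated arrays, at -0.06 ± 0.07. Amt stood at 0.00 ± 0.08, and at -0.03 with median scaling. Of this group 3 of 5 members were measured and 0 passed an unadjusted p of 0.05 by limma (4.97% of all genes lower and 5.39% higher).

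The acylases Acy1 and Acy3 remove acetyl groups from acetylated amino acids, Acy3 chiefly from mercapturates and aromatic ones. Acy1 stood at 4.95, 4.88 and 4.91 with water and at 4.92, 4.83 and 4.87 with treatment, at -0.04 ± 0.05. Acy3 gave 7.99, 7.73 and 8.07 with water and 8.06, 8.04 and 7.65 with treatment, at -0.01 ± 0.15. In neither did the groups part.

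By their brightest probes, the gluconeogenic enzyme fructose bisphosphatase (Fbp1) and the inositol oxygenase Miox lay close to their water values. Miox opens the inositol ring and is made almost only in proximal tubule. Fbp1 stood at 8.98, 9.01 and 8.94 on water arrays and at 8.93, 8.95 and 8.90 on treated arrays. Its difference was -0.05, with a 95% interval of -0.17 to 0.08. Miox gave 9.06, 9.02 and 8.99 with water and 9.0, 9.03 and 8.94 with treatment, at -0.03 with an interval of -0.17 to 0.10. For the brightest probe of both genes the groups overlapped. Dimmer probes of the 2 genes stood at -0.15 for Fbp1 and -0.30 for Miox. On that probe of Miox the treated arrays (6.94, 6.64 and 6.62) all lay below the water arrays (7.13, 7.01 and 6.97).

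Probes of a gene were compared for the 16 members that had more than 1. In 14 of them all probes had the same sign, and in Dbt and Hgd they differed. For 10 members every probe was below 0, and in 9 of these (all but Pcca) every dimmer probe was more negative than the brightest one, which stands for the gene above. The 4 members with every probe above 0 were Aadat, Gatm (-0.02 with median scaling), Hibch and Oat. With the mean over the probes of a gene, the members had a median of -0.12, and 6 lower and 0 higher ones had an unadjusted p under 0.05, against 5.73% and 4.96% of all genes. The share of all genes with such unequal probes was not computed, and the cause of the unequal sizes was not tested.

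**Figure D4:**
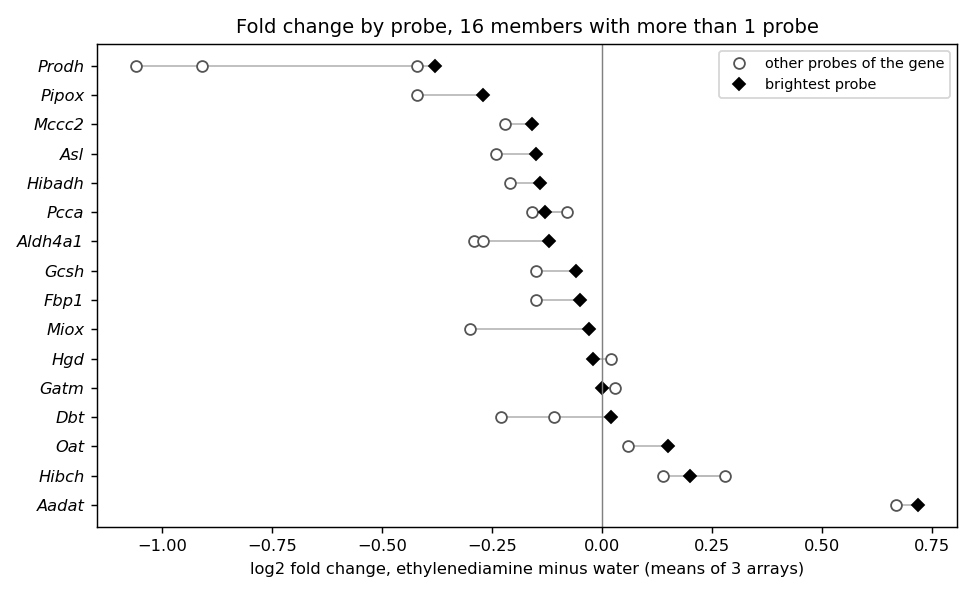
Each row is one of the 16 members with more than 1 probe, the x axis is the difference between the ethylenediamine and water means on the log2 scale (3 arrays each), the black diamond is the brightest probe and open circles are the others. The 4 probes of Prodh run from -0.38 to -1.06, and those of Miox from -0.03 to -0.30.

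The members were also set out by cofactor and by place in the cell. Of the 4 members lower at an unadjusted p under 0.05, 3 use flavin adenine dinucleotide (FAD): Dmgdh, Prodh and Dao. The 9 FAD enzymes of the list had a median difference of -0.13, and 4 of them had treated arrays wholly below water arrays, where 4.97% of all genes were lower at that p and 8.27% did not overlap. Other FAD enzymes lay near 0, with Prodh2, Ddo and Ivd between 0.01 and 0.03. The 6 measured enzymes that use pyridoxal phosphate had a median of -0.11 with a range of -0.32 to 0.72, and 0 of them passed an unadjusted p of 0.05. The 4 enzymes with non-heme iron (Hpd, Hgd, Haao and Miox) had a median of -0.03. By place, all 12 measured cytosolic members were below 0 (median -0.09, with Hgd at 0.00 under quantile scaling). So were 16 of 26 mitochondrial members (median -0.09) and 2 of 3 peroxisomal ones (median -0.24), where 51.2% of all genes were below 0. Within slide 1, 5 of the 12 cytosolic members were above 0: Acy3 at 0.13, Hpd at 0.08, Fah at 0.06, Gstz1 at 0.02 and Acy1 at 0.00 after rounding.

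Other genes of the same pathways, which are not members, were read in the same fit. Of 58 listed, 54 were measured, with a median difference of -0.05. Unadjusted p-values under 0.05 were found for 7 lower and 4 higher genes of the 54 (4.97% and 5.39% of all genes), and 0 passed after adjustment by limma (smallest adjusted p = 0.348). Aldh6a1, which oxidises the semialdehyde that Hibadh makes from valine, stood at 2.24, 2.28 and 2.15 with water and at 2.04, 1.80 and 1.86 with treatment, at -0.32 ± 0.08. Kynu, which cleaves kynurenine products between Kmo and Haao, was at -0.32 ± 0.11, and Agxt, the glyoxylate aminotransferase, at -0.28 ± 0.09. Gamt, which methylates the guanidinoacetate that Gatm makes, was at 0.26 ± 0.09. The other genes of both counts, named after their values were seen, were Acadsb (-0.61 ± 0.22), Acmsd (-0.39 ± 0.15) and Ddc (-0.38 ± 0.14) on the lower side and Chdh, the alanine transaminase Gpt (0.30 ± 0.12) and Pck2 (0.20 ± 0.07), the mitochondrial counterpart of Pck1, on the higher side. In gluconeogenesis, pyruvate carboxylase (Pc) stood at 7.69, 7.74 and 7.59 with water and at 7.48, 7.46 and 7.44 with treatment, and its treated arrays all lay below its water arrays. Its difference was -0.21 ± 0.06 (adjusted p = 0.355 by limma). Of the other genes of this route, Pck1 was at -0.01 ± 0.10 and Glud1, which releases ammonia from glutamate, at -0.05 ± 0.11. Glucose-6-phosphatase (G6pc1), the last step, was at -0.22 ± 0.12, with 1 water array at 7.90 and the other 5 arrays between 7.34 and 7.56.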

How the data were processed

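Total RNA of renal cortex from 6 rats was labelled with Cy3 and hybridised to 1-colour Agilent arrays, per the labels' protocols. Linear spot intensity was taken from the deposited scanner files, as background-subtracted by Agilent Feature Extraction on a grid built on rn4, with no scaling between arrays. The software version is 10.7 in the submitters' processing notes and 10.7.1.1 per the file headers. The deposited processed table holds the same signal as a ratio to each array's 75th percentile (within 2% of it for 99.97% to 99.99% of the probes above 0.01 on each array, by comparison with the scanner files; column medians 0.1046 to 0.1104) and was used as an alternative.

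Here log2 intensity minus the array's 75th percentile was used. Control spots (1439) and 22 probes with an outlier flag were left out. Symbols came from the RefSeq accession of a probe (GRCr8, names and promoter sequences only). Genes were named for 28194 of 61515 probes. A probe was kept if well above background on all 3 arrays of a group, and the brightest kept probe over the 6 arrays stood for its gene. The test of treated against water arrays was that of limma 3.58.1, run under R 4.3.3 (lmFit, eBayes, Benjamini-Hochberg over 11530 genes, threshold 0.05; 4 residual and 1.84 prior degrees of freedom). The fit was tested on simulated data for this comparison (11530 genes): it called 81 of 100 genes given a 2-fold change, 96 of 100 given a 4-fold change, and 11 unchanged genes. The simulated data held no slide effect and no change smaller than 2-fold. These counts therefore do not cover differences as small as those of the members. The number of arrays limits the precision.

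The members and lists were chosen with earlier results of these data known. Values on every array are given for the 10 members with the smallest p and for the 2 with the smallest p in each role group, 21 in all, and 5 pathway genes by the same order with Pck1, G6pc1, Pc and Glud1 always; 1 further gene of that rule is not reported here. Values of other members on every array were added after they were seen. Alternatives covered background, scaling, probe filter and choice, fit, slide, replicate block and each array left out. The normexp alternative (offset 50) used the median spot signal and median local background, since the planned mean signal was not analysed here.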

Additional observations from a re-analysis of the deposited data

How the results depend on the processing

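Over 18 alternatives, 0 of 41 members passed an adjusted p of 0.05 by limma, with 1194 of 11530 genes at an unadjusted p under 0.05 in the main setting. The count of all genes called, 0 in the main setting, was 1 with an intensity trend, 10 with the slide as a fixed block and 6 within slide 1, and 0 to 1 without each array in turn. The median of the members (-0.11) was -0.02 under a slide block and also -0.02 within slide 1, values that rest on ethylenediamine replicate 1 alone, and -0.14 to -0.05 without each array in turn. It was -0.14 with median scaling, where all genes moved to -0.03. The count of members lower at an unadjusted p under 0.05 (4) was 7 with an intensity trend, 2 within slide 1 and 2 with the replicate number as a block, where 4.92%, 4.46% and 3.94% of all genes were lower. It was 0 to 14 without each array in turn, where 3.76% to 6.25% of all genes were. With the slide as a block it was 3, and 0 of the 4 members of the main setting were among them. Same-numbered animals shared only a number: the correlations of their deviations from the group means were -0.003, 0.022 and -0.008. With replicate block the count of genes called stayed at 0.

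Of 378 values of the 21 named members under an alternative, 358 kept their sign, 20 did not (3 of these are 0.00 at 2 decimals), and 0 passed the threshold. Under a slide block, and equally within slide 1, Aadat was at -0.24, Acy3 at 0.13, Aldh4a1 at 0.01, Fah at 0.06, Gcsh at 0.04 and Gstz1 at 0.02. Ddo was at -0.02 with normexp background, and -0.02 to 0.07 without each array in turn. Without single arrays Acy3 ranged from -0.11 to 0.12, at 0.02 without water replicate 1, 0.06 without water replicate 3 and 0.12 without ethylenediamine replicate 3. The cause of these shifts was not tested. All members were well above background on all 6 arrays.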
